A study of Homo sapiens with 6 samples.

Results

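The 41 genes described here encode the machinery that copies DNA in S phase, together with regulators of the G1/S transition. They were chosen by name, and all 41 matched the 55871 gene symbols of the count tables. They fall into 9 roles: 6 subunits of the MCM helicase, 4 genes of origin recognition and loading, 6 of helicase activation, 6 of polymerases and primase, 5 of the sliding clamp and its loader, 5 of lagging strand synthesis and single-strand binding, 3 of nucleotide supply, 3 G1/S regulators and 3 genes that act on chromatin behind the fork. RNA-seq was performed on 6 libraries of HEK293T, a human embryonic kidney cell line that carries the SV40 large T antigen. 3 libraries came from cells expressing a nonspecific short-hairpin RNA (sh-control) and 3 were labelled as coming from cells expressing a hairpin that targets *RREB1* (sh-RREB1). The study's methods describe stable lines made by infection with pLKO.1 lentivirus and selection with neomycin, in DMEM with 10% FBS, so the controls also carried a vector and went through selection. The RNA-seq used 1 hairpin against *RREB1*, and the labels do not say whether the 3 libraries of a group came from separate cultures, so p-values measure only the spread between these libraries.

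DNA replication is prepared in G1, when the origin recognition complex, CDC6 and CDT1 load the MCM helicase on DNA, and begins in S phase, when CDC45 and the GINS complex turn the helicase on. Many of these genes are targets of E2F transcription factors, which the RB family of proteins holds back until cyclin E and CDK2 inactivate it. Large T antigen also binds the RB family, and both groups carry it.

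The E2F recognition sequence was common in front of these genes. RefSeq promoter windows of GRCh38, from 250 bases before to 50 bases after the start of transcription, were found for 35 of the 41 genes. *MCM4*, *MCM5*, *GINS4*, *RPA2*, *RPA3* and *CCNE2* were not matched. The letters TTTCCCGC, TTTCGCGC, TTTGCCGC or TTTGGCGC, on either strand, occurred in 19 of the 35 windows (54.3%) and in 5.07% of the 13206 windows of all genes tested. The letters CCAAT, on either strand, occurred in 60% of the members' windows and in 36.6% of all windows. The GC box GGGCGG occurred in 74.3% of the members' windows and in 67.2% of all windows. The letters TTTGAA, found in promoters of many mitotic genes, occurred in 1 of the 35 windows (2.86%) and in 10.3% of all windows. A match to letters is a description of the sequence and says nothing of binding. Windows of 30 bases are shown for 6 genes of 5 roles, to show the element at which the genes resemble each other, with the match in capitals. Each is written 5′ to 3′ along the strand of its gene.
*MCM6*, chr2:135876577-135876606, minus strand, match starting 152 bases before the start of transcription: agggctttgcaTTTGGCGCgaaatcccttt
*CDT1*, chr16:88803743-88803772, plus strand, 35 bases before: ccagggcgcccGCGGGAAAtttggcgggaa
*POLA1*, chrX:24693770-24693799, plus strand, 137 bases before: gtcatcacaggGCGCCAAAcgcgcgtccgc
*PCNA*, chr20:5126663-5126692, minus strand, 59 bases before: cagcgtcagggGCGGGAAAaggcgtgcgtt
*RFC3*, chr13:33818083-33818112, plus strand, 55 bases before: atttggagctcGCGGGAAAacttgtctctg
*E2F1*, chr20:33686387-33686416, minus strand, 20 bases before: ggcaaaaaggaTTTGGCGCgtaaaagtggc
The *MCM6* window held 4 matches in all, in 2 overlapping pairs, and the *E2F1* window held 2. The windows shown belong to genes with fold changes in either direction, from 1.77 for *CDT1* to −0.35 for *MCM6* on the log2 scale. Of the 19 genes with a match, 11 had a fold change above 0 and 8 below, and 3 passed an adjusted p of 0.05 in each direction. Of the 16 genes whose window held none, 7 were above 0 and 9 below, with 1 and 4 past that threshold. The same threshold was passed by 10.8% of all genes tested in the higher direction and by 8.81% in the lower. A difference between genes with and without a match was not tested.

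The sh-control libraries held 23362197 to 33044061 reads on genes and the sh-RREB1 libraries 12257054 to 26145878. The lowest count of any of the 41 genes in any library was 43 reads, for *CDT1*. Sh-RREB1 replicate 3 was the shallowest library, and 52.1% of its reads mapped to several places against 3.66 to 7.63% in the other 5. It also had the most reads on the opposite strand of genes, 3923750, against 1207964 to 1718516 in the other 5. Levels below are CPM, read counts relative to the number of reads on genes after TMM scaling, and are given in the order of replicates 1, 2 and 3. *RREB1*, the target of the hairpin, was at 27.1, 25.2 and 26.6 CPM across sh-control and 23.7, 24.6 and 23.1 CPM across sh-RREB1. The sh-RREB1 libraries were all slightly lower, with log2 fold change −0.14 (SE 0.13, adjusted p = 0.485) in edgeR's quasi-likelihood test, which is used throughout with Benjamini-Hochberg adjustment over 23345 genes. With the trend on base composition described further down removed it was −0.36 (adjusted p = 0.0534). Since *RREB1* was not called lower, sh-RREB1 is here the name of a label. The labelled cell line was checked against its markers, with marker CPM taken without TMM scaling. The summed level of 9 lineage markers was 692 to 711 CPM in sh-control and 1013 to 1065 CPM in sh-RREB1. None of the 9 was at 0 in all libraries, and *PAX2* and *NEFH* were below 1 CPM in each. *VIM* was the largest part of the sum in each library. It was at 326, 344 and 321 CPM across sh-control and 597, 617 and 546 CPM across sh-RREB1. The 6 blood markers summed to 0.899 to 1.52 CPM, with 2 at 0 throughout, and the 3 hepatocyte markers to at most 0.515 CPM, with 1 at 0. The 4 fibroblast markers, none at 0 throughout, summed to 3.52 to 4.12 CPM in sh-control and 3.51 to 15.7 CPM in sh-RREB1. The highest sum was in sh-RREB1 replicate 2, where *COL1A2* was at 3.94 CPM, and its part in the results was not tested.

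The genes did not move as a block. *UHRF1*, which brings the maintenance DNA methyltransferase to newly copied DNA, rose 2.35-fold in sh-RREB1, while *PRIM1*, *RRM1* and *CDC6* fell to 0.608, 0.645 and 0.645 times their sh-control level. The largest fold changes belonged to *CDT1* and *POLD1*, which were 3.40 and 3.15 times as high but spread widely among the controls. Of the 41 genes, 20 had a fold change above 0 and 21 below, and the median log2 fold change was −0.063, against 0.014 over all genes tested. At an adjusted p under 0.01 and more than a 2-fold change, 1 gene, *UHRF1*, was called, and it was higher. That is 1 of 41 where 3.41% of all genes tested were called, 2.71% higher and 0.698% lower. At an adjusted p under 0.05 with no minimum fold, 13 genes passed, 5 higher (*MCM5*, *CDT1*, *POLD1*, *POLE* and *UHRF1*) and 8 lower (*ORC6*, *CDC6*, *PRIM1*, *POLE2*, *PCNA*, *RFC4*, *RRM1* and *CCNE2*). Over all genes tested 19.6% passed this threshold, 10.8% higher and 8.81% lower. The levels of the groups did not overlap for 23 of the 41 genes, 9 higher and 14 lower in sh-RREB1, against 41.1% of all genes tested, 21.1% higher and 20% lower. In this bulk RNA, fewer cells in a phase of the cell cycle and less RNA per cell cannot be told apart.

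**Figure D1:**
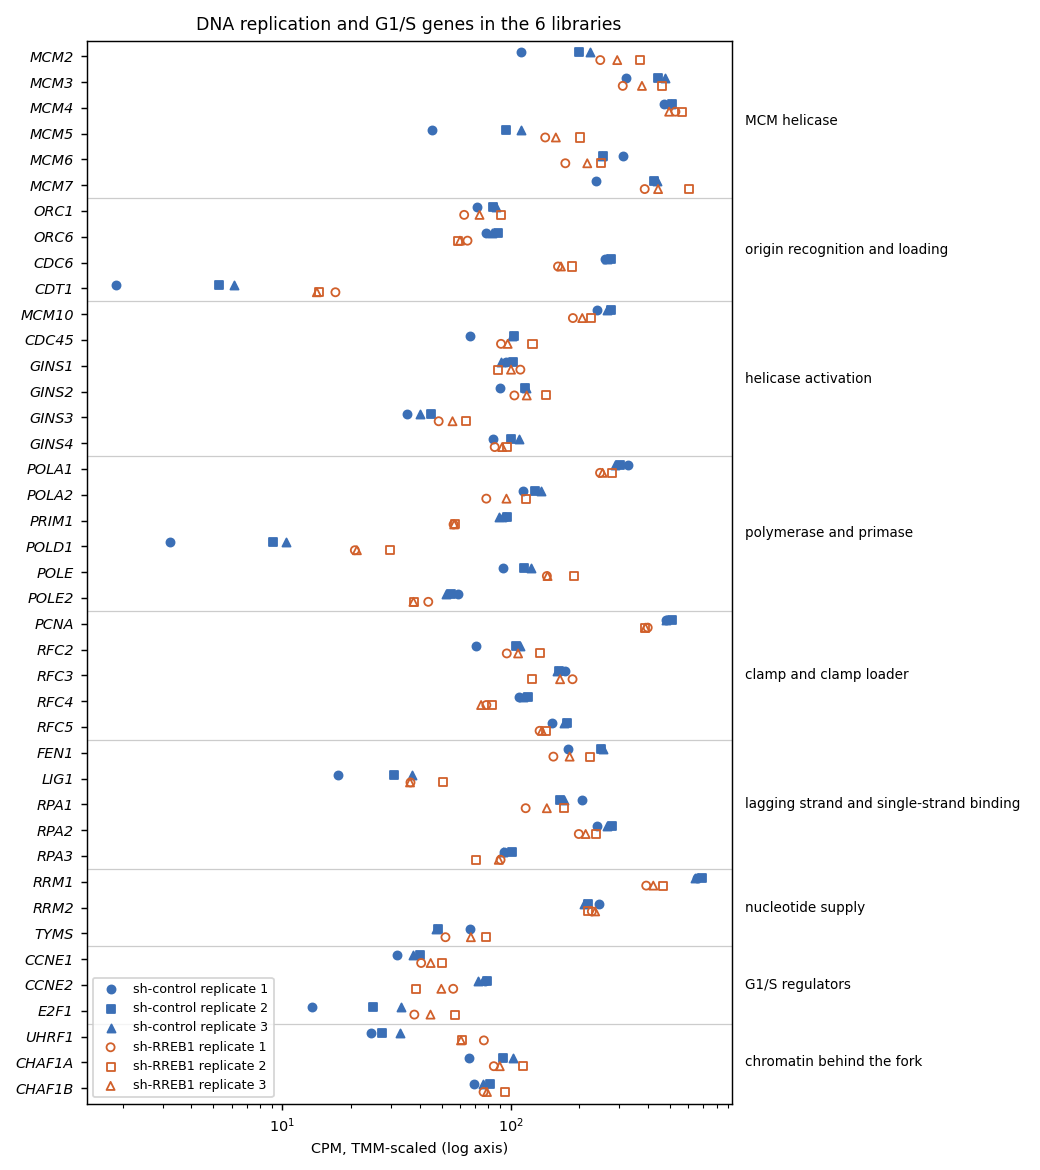
CPM on a log axis of the 41 genes, 1 point per library, grouped by role. Filled blue symbols are sh-control and open orange symbols sh-RREB1, with circles, squares and triangles for replicates 1, 2 and 3. Sh-control replicate 1 (filled circle) lies left of the other controls for *CDT1*, *POLD1*, *MCM5*, *MCM2* and *E2F1*, while the controls of *PRIM1*, *CDC6* and *RRM1* lie close together and right of all sh-RREB1 points.

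The 6 subunits MCM2 to MCM7 form a ring in equal amounts. The estimated fold changes of their transcripts differed in sign, and none was lower at an adjusted p under 0.05. *MCM5* (ENSG00000100297, chr22:35400134-35425431, plus strand, GRCh38 as for all genes) was at 45.3, 95.6 and 111 CPM across sh-control and 142, 202 and 158 CPM across sh-RREB1. All 3 sh-RREB1 libraries were above all controls, and sh-control replicate 1 lay further below the other controls than the controls lay below sh-RREB1. *MCM5* had log2 fold change 0.99 (SE 0.29, adjusted p = 0.0441). *MCM6*, at 312, 254 and 252 CPM across sh-control and 174, 249.6 and 217 CPM across sh-RREB1, had the lowest fold change of the 6, with log2 fold change −0.35 (SE 0.15, adjusted p = 0.136). Its groups did not overlap, though sh-RREB1 replicate 2 came close to the lowest control. *MCM2* was the other subunit with all sh-RREB1 libraries above the controls, with log2 fold change 0.77 (SE 0.25, adjusted p = 0.0599), and *MCM7*, *MCM4* and *MCM3* overlapped between groups, at 0.38, 0.10 and −0.11. Of the 6, *MCM5* alone had an adjusted p under 0.05. The number of *MCM5* reads per *MCM6* read was 0.145, 0.376 and 0.441 in sh-control and 0.816, 0.809 and 0.728 in sh-RREB1, a pair chosen after the values were seen, so no test is given. This ratio separated the groups and also set sh-control replicate 1 apart from the other controls. The pair holds the subunits with the highest and the lowest fold change, so the separation follows from the choice. The log2 change of the ratio was 1.35, and 0.70 with the trend on base composition removed.

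The loading factors moved in opposite directions. *CDC6* (ENSG00000094804, chr17:40287879-40304657, plus strand), the ATPase that joins the origin recognition complex and brings in CDT1 with the helicase, was at 259, 275 and 264 CPM across sh-control and 161, 187 and 166 CPM across sh-RREB1. The controls lay within a narrow range and all sh-RREB1 libraries were below it. *CDC6* fell, with log2 fold change −0.63 (SE 0.10, adjusted p = 0.00590). *CDT1* (ENSG00000167513, chr16:88803789-88809258, plus strand), the loader that geminin inhibits once S phase has begun, was at 1.87, 5.30 and 6.17 CPM across sh-control and 17.1, 14.4 and 14.2 CPM across sh-RREB1. Every sh-RREB1 library was more than 2-fold above every control, and sh-control replicate 1 was itself more than 2-fold below the other controls. *CDT1* had log2 fold change 1.77 (SE 0.36, adjusted p = 0.0129) and missed the stricter threshold. Reads on the opposite strand of *CDT1* made up 23.2, 16.8 and 18.2% of the reads on both strands across sh-control. Across sh-RREB1 they made up 10.3, 11.7 and 10.95%. The edgeR test on opposite-strand counts gave *CDT1* a log2 fold change of 0.78 (adjusted p = 0.199). *ORC6*, the smallest subunit of the origin recognition complex, was at 78.3, 88.4 and 83.4 CPM across sh-control and 64.8, 59.1 and 60.1 CPM across sh-RREB1. The groups did not overlap, and *ORC6* was lower, with log2 fold change −0.44 (SE 0.11, adjusted p = 0.0233). *ORC1*, the largest subunit, overlapped between groups, with a log2 fold change of −0.090 and a 95% interval of −0.44 to 0.26.

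None of the 6 genes of helicase activation passed an adjusted p of 0.05 with edgeR on the uncorrected counts. 2, *GINS3* and *MCM10*, passed an unadjusted p of 0.05, as did 8027 of the 23345 genes tested. The same 2 passed an adjusted p of 0.05 with DESeq2, as did 22.9% of all genes tested. With the trend on base composition removed, *GINS3* alone passed with edgeR (adjusted p = 0.00441), where 22.1% of all genes tested passed. *GINS3*, a subunit of the GINS complex, was at 35.2, 44.8 and 40.1 CPM across sh-control and 48.5, 63.9 and 55.7 CPM across sh-RREB1. The sh-RREB1 libraries all exceeded the controls, with log2 fold change 0.48 (SE 0.15, adjusted p = 0.0515). *MCM10*, a scaffold needed as the helicase starts, was at 240.4, 274 and 266 CPM across sh-control and 188, 224 and 206 CPM across sh-RREB1. Each sh-RREB1 library was below each control, with log2 fold change −0.34 (SE 0.11, adjusted p = 0.0619). *CDC45*, *GINS2*, *GINS1* and *GINS4* overlapped between groups, with log2 fold changes of 0.21, 0.18, 0.055 and −0.10. The narrowest of these intervals, for *GINS1*, ran from −0.22 to 0.33.

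Primase and the polymerases also held genes that moved in opposite directions. *PRIM1* (ENSG00000198056, chr12:56730438-56752374, minus strand), the catalytic subunit of primase that makes the RNA primers, was at 94.1, 96.6 and 89.1 CPM across sh-control and 56.3, 57.1 and 56.7 CPM across sh-RREB1. The sh-RREB1 libraries were nearly identical to each other and well below the controls, which also lay close together. *PRIM1* fell, with log2 fold change −0.72 (SE 0.10, adjusted p = 0.00418). Its fold change was the lowest of the 41 before the trend on base composition was removed, and after removal *FEN1* (−0.52) and *CHAF1A* (−0.50) were lower than *PRIM1* (−0.48). It shares 10.9% of its exonic bases with another annotated gene on the same strand, and how the counting split such reads was not tested. *POLD1* (ENSG00000062822, chr19:50384204-50418018, plus strand), the catalytic subunit of polymerase delta on the lagging strand, was at 3.22, 9.12 and 10.4 CPM across sh-control and 20.8, 29.8 and 21.2 CPM across sh-RREB1. All sh-RREB1 libraries were above all controls, and sh-control replicate 1 was below 0.5 times either other control. *POLD1* was higher, with log2 fold change 1.66 (SE 0.37, adjusted p = 0.0182). *POLE*, the catalytic subunit of polymerase epsilon on the leading strand, was at 92.9, 115 and 123 CPM across sh-control and 144, 189.8 and 145 CPM across sh-RREB1, with log2 fold change 0.54 (SE 0.15, adjusted p = 0.0383). *POLE2*, the second subunit of the same enzyme, was at 59, 54.8 and 52.3 CPM across sh-control and 43.6, 37.9 and 37.6 CPM across sh-RREB1, with log2 fold change −0.48 (SE 0.12, adjusted p = 0.0286). Neither gene overlapped between groups, and the 2 subunits of this polymerase thus lay on opposite sides of the controls. *POLA1* and *POLA2*, the catalytic and the B subunit of polymerase alpha, had log2 fold changes of −0.24 and −0.37 with adjusted p values of 0.140 and 0.124.

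Of the sliding clamp and its loader, *PCNA* and *RFC4* were lower. *PCNA* (ENSG00000132646, chr20:5114953-5126626, minus strand), the clamp that holds polymerases on DNA, was at 479.8, 508 and 481 CPM across sh-control and 399, 389.8 and 389 CPM across sh-RREB1. The groups were apart by more than the range of either, and the difference was small, with log2 fold change −0.32 (SE 0.091, adjusted p = 0.0400). *RFC4*, a subunit of the clamp loader, was at 109, 119 and 114 CPM across sh-control and 78.4, 83.3 and 74.3 CPM across sh-RREB1. All sh-RREB1 libraries were below all controls, with log2 fold change −0.53 (SE 0.10, adjusted p = 0.0107). *RFC2*, the subunit with the highest fold change, was at 70.6, 106 and 110.2 CPM across sh-control and 96.3, 135 and 108 CPM across sh-RREB1 and overlapped between groups, with log2 fold change 0.24 (SE 0.19, adjusted p = 0.409). *RFC5* had a log2 fold change of −0.27 without overlap (adjusted p = 0.102), and *RFC3* overlapped, at −0.063.

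The 5 genes of lagging strand synthesis and single-strand binding did not pass an adjusted p of 0.05 with edgeR or DESeq2 on the uncorrected counts. 1, *RPA2*, passed an unadjusted p of 0.05 with edgeR there, as did 8027 of the 23345 genes tested. With the trend on base composition removed, *FEN1* (adjusted p = 0.00129) and *RPA2* (adjusted p = 0.0266) passed an adjusted p of 0.05 with edgeR. So did 22.1% of all genes tested. *LIG1*, the ligase that joins Okazaki fragments, was at 17.6, 30.9 and 37.2 CPM across sh-control and 36.5, 50.8 and 36.3 CPM across sh-RREB1. Its sh-RREB1 libraries were above sh-control replicates 1 and 2 but not all were above replicate 3, with log2 fold change 0.53 (SE 0.26, adjusted p = 0.193). *RPA1*, the large subunit of the single-strand binding protein, was at 206, 165 and 171 CPM across sh-control and 116, 172 and 144 CPM across sh-RREB1 and overlapped between groups, with log2 fold change −0.33 (SE 0.16, adjusted p = 0.179). *FEN1*, the flap endonuclease that trims Okazaki fragments, had a log2 fold change of −0.29, and *RPA2* and *RPA3* of −0.27 and −0.21.

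The large subunit of ribonucleotide reductase was lower, while the small subunit overlapped between groups. *RRM1* (ENSG00000167325, chr11:4094707-4138932, plus strand) was at 653, 692 and 640.1 CPM across sh-control and 393, 465 and 422 CPM across sh-RREB1. All sh-RREB1 libraries were far below all controls, and *RRM1* fell, with log2 fold change −0.63 (SE 0.10, adjusted p = 0.00629). *RRM2*, which carries the radical of the same enzyme and rises in S phase, had a log2 fold change of 0.018 and a 95% interval of −0.22 to 0.25. *TYMS*, which makes thymidylate, was at 66.8, 48.3 and 47 CPM across sh-control and 51.9, 78.5 and 67 CPM across sh-RREB1. Sh-control replicate 1 lay among the sh-RREB1 libraries and above its own group, and *TYMS* had log2 fold change 0.29 (SE 0.19, adjusted p = 0.334). *TYMS* shares 39.9% of its exonic bases with *ENOSF1* on the opposite strand, and the counts used are strand-specific.

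Among the G1/S regulators the cyclins E differed in sign. *CCNE2*, a cyclin that activates CDK2 at the G1/S transition, was at 77.5, 78.5 and 71.9 CPM across sh-control and 56.1, 38.4 and 49.8 CPM across sh-RREB1. All sh-RREB1 libraries were below all controls, and *CCNE2* was lower, with log2 fold change −0.66 (SE 0.15, adjusted p = 0.0187). 37.1% of its exonic bases overlap *INTS8* on the opposite strand. *CCNE1*, the other cyclin E, was higher in each sh-RREB1 library than in any control, by a narrow gap, with a log2 fold change of 0.31 (adjusted p = 0.163). The number of *CCNE1* reads per *CCNE2* read was 0.412, 0.511 and 0.518 in sh-control and 0.724, 1.30 and 0.898 in sh-RREB1, again a pair chosen after the values were seen. The log2 change of this ratio was 0.97, and 0.55 with the trend on base composition removed. *E2F1*, the activator that drives many of these genes, was at 13.5, 25 and 33 CPM across sh-control and 37.9, 57 and 44.6 CPM across sh-RREB1. The groups did not overlap, sh-control replicate 1 was the lowest library, and *E2F1* missed the threshold, with log2 fold change 0.96 (SE 0.30, adjusted p = 0.0518).

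Among the genes that act on chromatin behind the fork, *UHRF1* stood out. *UHRF1* (ENSG00000276043, chr19:4903080-4962154, plus strand) was at 24.5, 27.4 and 32.7 CPM across sh-control and 76.4, 61.6 and 60.7 CPM across sh-RREB1. All sh-RREB1 libraries were well above all controls, by more than the range of either group. *UHRF1* rose, with log2 fold change 1.23 (SE 0.16, adjusted p = 0.00335) and a 95% interval of 0.88 to 1.59. *CHAF1A*, the large subunit of the chromatin assembly factor CAF-1 that places histones on new DNA, was at 65.8, 92.7 and 102 CPM across sh-control and 84.5, 113 and 89.7 CPM across sh-RREB1 and overlapped between groups, with log2 fold change 0.14 (SE 0.18, adjusted p = 0.644). *CHAF1B*, the middle subunit, was at 0.14 (95% interval −0.14 to 0.42).

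**Figure D2:**
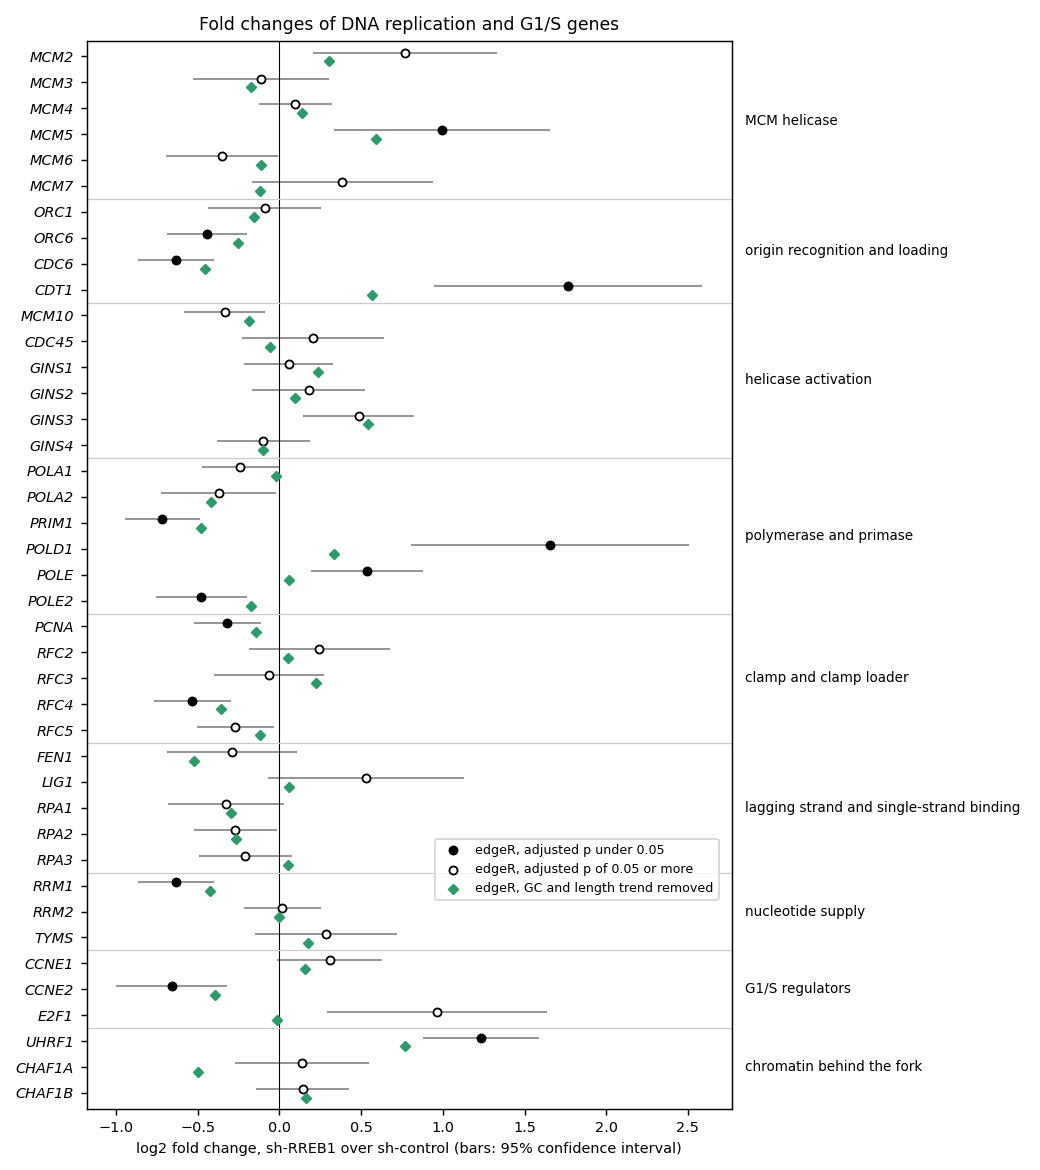
Log2 fold change of sh-RREB1 over sh-control for each of the 41 genes, by role. Circles with bars are the edgeR estimate and its 95% confidence interval, filled for the 13 genes with an adjusted p under 0.05, and green diamonds are the estimate after removal of the trend on GC content and exonic length. Most diamonds lie closer to 0 than the circles, with *CDT1* moving from 1.77 to 0.56 and *CHAF1A* from 0.14 to −0.50.

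The fold changes followed the base composition of the genes. Exonic GC content ran from 39.1% (*RFC3*) to 64.8% (*POLD1*), with a median of 48.8%. Over the 41 genes, which share libraries and are not independent, Pearson's r between GC content and log2 fold change was 0.839 and Spearman's rho 0.785. Of the 18 genes above 50% GC, 15 had a fold change above 0, with a median log2 fold change of 0.345, and all 5 of the genes higher at an adjusted p under 0.05 were among them. Of the 23 genes below 50% GC, 18 had a fold change below 0, with a median of −0.319, and all 8 of the genes lower at that threshold were among them. The trend was not particular to these genes: over 14710 expressed genes rho was 0.59, and the median log2 fold change went from −0.23 in the lowest of 10 bins of GC content to 1.13 in the highest. It was present among the controls too. Sh-control replicate 1 was below both other controls for 29 of the 41 genes, in 17 of the 18 above 50% GC and in 12 of the 23 below, and its deviation from the other controls correlated with GC content at r = −0.831 and rho = −0.834.

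With a smooth trend on GC content and length removed from each library, none of the 41 genes was called, where edgeR called 3.02% of all genes tested, 1.82% higher. 19 passed an unadjusted p of 0.05, where 7975 of the 23345 genes tested did. DESeq2 on the uncorrected counts called 3 (*CDT1*, *POLD1* and *UHRF1*), all higher, where it called 7.06% of all genes, 5.93% higher. At an adjusted p under 0.05, 13 genes passed after removal, 4 higher and 9 lower, where 22.1% of all genes passed, 10.4% higher and 11.7% lower. 8 genes passed with and without the trend and kept their direction. *UHRF1* (0.77, adjusted p = 0.00506), *MCM5* (0.59, 0.0169) and *CDT1* (0.56, 0.0297) were higher on the log2 scale. *CDC6* (−0.46, adjusted p = 0.00508), *PRIM1* (−0.48, 0.00185), *RFC4* (−0.36, 0.0103), *RRM1* (−0.43, 0.0102) and *CCNE2* (−0.40, 0.00853) were lower. *ORC6*, *POLD1*, *POLE*, *POLE2* and *PCNA* no longer passed, and *POLE* went from 0.54 to 0.056. *GINS3* (0.54), *POLA2* (−0.42), *FEN1* (−0.52), *RPA2* (−0.26) and *CHAF1A* (−0.50) passed only after removal, and the *CHAF1A* estimate changed sign. *E2F1* went from 0.96 to −0.013. The sign was the same for 34 of the 41 genes and turned for 7. The groups differ in this trend, so removing it can also remove a true difference that follows GC content, and the 2 cannot be told apart here.

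**Figure D3:**
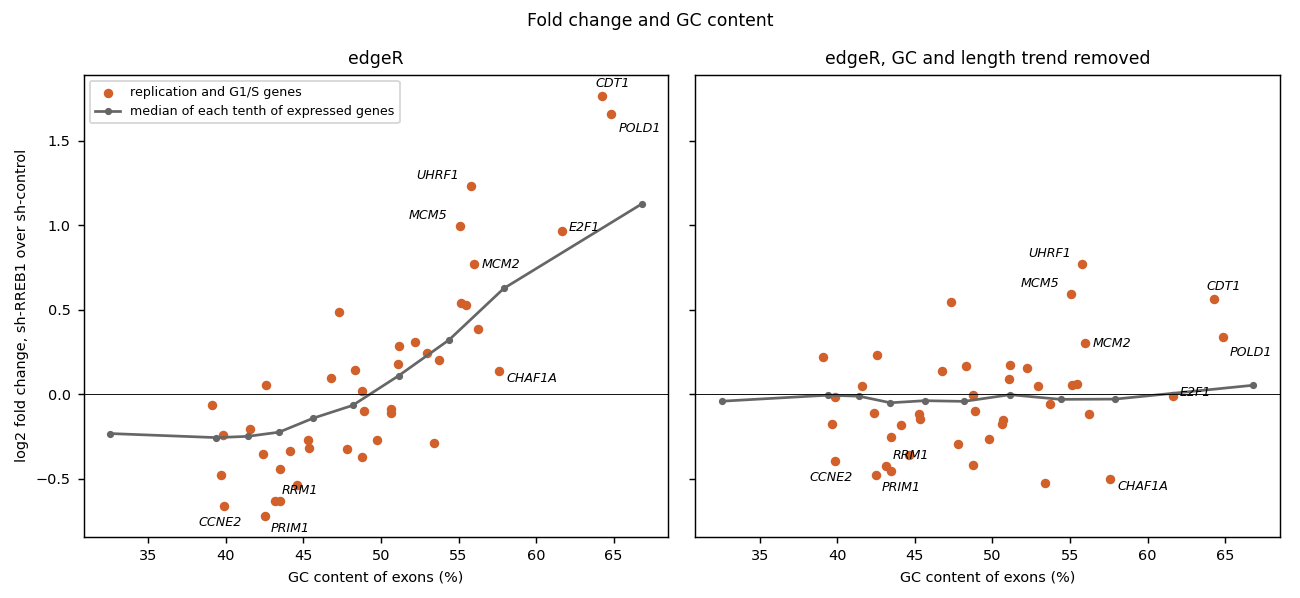
Log2 fold change of sh-RREB1 over sh-control against GC content of exons in percent, before (left) and after (right) removal of the trend on GC content and length. Orange points are the 41 genes, and the grey line joins the median log2 fold change of 10 bins of 14710 expressed genes, which climbs to 1.13 on the left and stays near 0 on the right. *UHRF1* and *MCM5* lie above the line and *PRIM1* and *RRM1* below it in both panels, while *E2F1* falls on it on the right.

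*CDC6*, *PRIM1*, *RRM1* and *UHRF1* kept an adjusted p under 0.05 whichever of the 6 libraries was left out. *UHRF1* was called only without sh-control replicate 1 or 3, and its adjusted p reached at most 0.0322 without sh-control replicate 2. *CDT1* missed 0.05 without sh-control replicate 2 (adjusted p = 0.0548) and was 1.38 on the log2 scale without sh-control replicate 1. *RFC4* and *CCNE2* missed it without sh-RREB1 replicate 3 or without sh-control replicate 2. *MCM5* passed only without sh-control replicate 1 (log2 fold change 0.66) or without sh-control replicate 3. *POLD1* missed it without sh-RREB1 replicate 2 or 3 or without sh-control replicate 2, and went down to 1.26 without sh-control replicate 1. *ORC6* missed it without sh-RREB1 replicate 3 or without sh-control replicate 2 or 3, and *POLE2* without sh-RREB1 replicate 2 or 3 or without sh-control replicate 2. *PCNA* passed only without sh-control replicate 1, and *POLE* only without sh-control replicate 3. The number of genes under 0.05 was 11, 10 and 5 without sh-RREB1 replicates 1, 2 and 3, and 18, 4 and 13 without sh-control replicates 1, 2 and 3. Over all genes tested in the same fits the share under 0.05 was 13.3, 14.03 and 6.65%, and 22.1, 6.13 and 16.9%, in the same order.

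Levels of different genes were compared per kilobase of exon, as RPKM computed from the same scaled counts. The length took in all annotated exons of a gene, not only those of transcripts present in these cells. In sh-control *PCNA* was highest at 349 RPKM, followed by *RRM1* at 156 and *RPA2* at 132, each above the next in every control except that *RPA2* overlapped *MCM3*, the fourth at 113. *CDT1* at 1.61 and *POLD1* at 1.53 RPKM were the lowest and overlapped each other. Their exonic GC content was 64.3 and 64.8%, and sh-control replicate 1 was the lowest control for both. The part of GC content in the ranking of levels was not tested. Among the MCM subunits, *MCM3* had 113, *MCM7* 73.8, *MCM6* 66, *MCM4* 50.2, *MCM2* 37.8 and *MCM5* 11.6 RPKM in sh-control. In sh-RREB1 *MCM5* was at 23 and *MCM2* at 64.3 RPKM, and *MCM5* was still the lowest of the 6.

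3 lists of related genes were set beside the 41. Of 39 other replication genes, 1 was called, *CHTF18*, an alternative clamp loader subunit, which was higher. 18 passed an adjusted p of 0.05, 3 higher and 15 lower, and the median log2 fold change was −0.23. Over all genes tested 3.41% were called and 19.6% passed 0.05, 10.8% higher and 8.81% lower. *CLSPN*, which holds the checkpoint kinase at the fork, was at 334, 292 and 303 CPM across sh-control and 162, 206 and 178 CPM across sh-RREB1. *WDHD1*, which ties polymerase alpha to the helicase, was at 220.2, 220.4 and 203 CPM across sh-control and 134, 132 and 135 CPM across sh-RREB1. Neither overlapped between groups, and both fell. *CLSPN* had log2 fold change −0.77 (SE 0.12, adjusted p = 0.00552), and *WDHD1* had log2 fold change −0.68 (SE 0.10, adjusted p = 0.00411). *CHTF18* was at 1.39, 2.24 and 4.02 CPM across sh-control and 9.50, 9.89 and 7.45 CPM across sh-RREB1. *RECQL4*, a helicase needed at origins, was at 2.04, 5.88 and 9.06 CPM across sh-control and 16.1, 22.2 and 15.7 CPM across sh-RREB1. The groups did not overlap for either. *CHTF18* had log2 fold change 1.80 (SE 0.34, adjusted p = 0.00973) and *RECQL4* had log2 fold change 1.66 (SE 0.43, adjusted p = 0.0288), which missed 0.05 without any 1 sh-RREB1 library or without sh-control replicate 2. With the trend removed *CHTF18* was at 0.27 and *RECQL4* at 0.34, and none of the list was called by edgeR. 19 passed an unadjusted p of 0.05, where 7975 of the 23345 genes tested did. 16 passed an adjusted p of 0.05, 4 higher and 12 lower, where 22.1% of all genes tested passed, 10.4% higher and 11.7% lower. DESeq2 on the uncorrected counts called 2, where it called 7.06% of all genes tested. *CHTF18* was not called without any 1 sh-RREB1 library or without sh-control replicate 2.

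Of 29 genes of the RB-E2F circuit and G1/S control, 1 was called, *CCND2*, a D-type cyclin, and 11 passed an adjusted p of 0.05, 6 higher and 5 lower. These are 3.45 and 37.9% of the list, against 3.41 and 19.6% of all genes tested, of which 10.8% were higher and 8.81% lower at 0.05. *CCND2* was at 60.8, 59.1 and 64.1 CPM across sh-control and 215, 220.0 and 220.3 CPM across sh-RREB1. The sh-RREB1 libraries agreed closely and were more than 3-fold above the controls, and *CCND2* rose, with log2 fold change 1.83 (SE 0.10, adjusted p = 1.39e-04) and 1.87 with the trend removed. *CDK6*, a kinase partner of D-type cyclins, was at 131, 104 and 106 CPM across sh-control and 269, 169 and 241 CPM across sh-RREB1. It was higher, with log2 fold change 0.99 (SE 0.18, adjusted p = 0.00851), which became 0.0596 without sh-control replicate 2. With the trend removed *CDK6* was called at 1.20. *CDKN1C*, a CDK inhibitor singled out after its values were seen, was then called at −2.21 (SE 0.42), against −0.50 before (adjusted p = 0.154). *CDKN1C* had only 17 to 72 reads per library and an exonic GC content of 67.3%. In that fit 3.02% of all genes tested were called, 1.82% higher and 1.2% lower. *RB1*, the retinoblastoma gene, was at 223, 172 and 170.3 CPM across sh-control and 155, 95.5 and 124 CPM across sh-RREB1, with log2 fold change −0.59 (SE 0.19, adjusted p = 0.0533). *RBL1*, a relative of *RB1* that binds E2F4, was at 91.5, 87 and 79.3 CPM across sh-control and 63.6, 51.1 and 55.3 CPM across sh-RREB1. It was lower, with log2 fold change −0.60 (SE 0.12, adjusted p = 0.0133), and missed 0.05 without sh-RREB1 replicate 3 or without sh-control replicate 2.

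Of 35 genes of mitosis and G2/M, which act after replication, 4 were called, all lower: *CDC25C*, *NUF2*, *AURKA* and *HMMR*, of which *AURKA* and *HMMR* were singled out after their values were seen. 23 passed an adjusted p of 0.05, 1 higher and 22 lower, and the median log2 fold change was −0.59. Over all genes tested 3.41% were called, 0.698% lower, and 10.8% were higher and 8.81% lower at 0.05. *CDC25C*, the phosphatase that activates CDK1, was at 69.4, 79 and 71.2 CPM across sh-control and 27.6, 37.6 and 28.9 CPM across sh-RREB1. *NUF2*, a kinetochore subunit, was at 180.1, 163 and 154 CPM across sh-control and 80.7, 67 and 69.2 CPM across sh-RREB1. Both were lower in each sh-RREB1 library than in any control. *CDC25C* had log2 fold change −1.22 (SE 0.15, adjusted p = 0.00312), and *NUF2* had log2 fold change −1.20 (SE 0.12, adjusted p = 0.00174). *CCNF* and *CDC25B* had the highest fold changes of the list. *CCNF*, which helps to degrade CDC6, was at 26.2, 41.8 and 45.4 CPM across sh-control and 56.7, 66.9 and 56 CPM across sh-RREB1, with log2 fold change 0.66 (SE 0.20, adjusted p = 0.0493), and was at 0.082 with the trend removed. Its adjusted p stayed under 0.05 only without sh-control replicate 1 or 3. *CDC25B* was at 13.7, 17.4 and 16.5 CPM across sh-control and 20.9, 26.9 and 19.8 CPM across sh-RREB1, with log2 fold change 0.51 (SE 0.18, adjusted p = 0.0760), and turned to −0.30. With the trend removed 23 of the 35 passed an adjusted p of 0.05, all lower, where 11.7% of all genes tested were lower. The median was −0.51, and *CDC25C* alone was called. Called genes numbered 1, 4 and 0 without sh-RREB1 replicates 1, 2 and 3, and 4, 0 and 7 without sh-control replicates 1, 2 and 3, where 0.110, 0.601 and 0.0347%, and 4.93, 0.0396 and 1.70% of all genes tested were called. The medians of the other replication genes and of the 41 were −0.13 and −0.058 with the trend removed, where the median over all genes tested was −0.026. A difference between the lists was not tested.

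**Figure D4:**
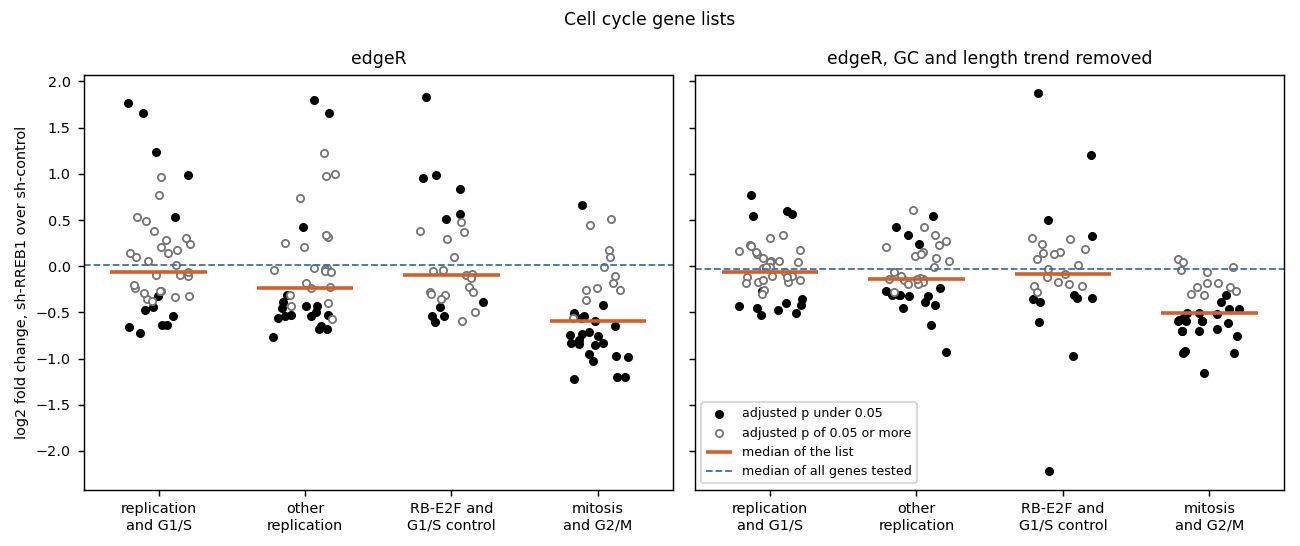
Log2 fold change of sh-RREB1 over sh-control for the 41 replication and G1/S genes and the 3 related lists, before (left) and after (right) removal of the trend on GC content and length. Each point is a gene, filled at an adjusted p under 0.05, spread sideways only so that points can be seen, with the median of the list as an orange bar and the median of all genes tested as a dashed line. The mitosis and G2/M genes lie lowest, with medians of −0.59 and −0.51, and the 41 genes are spread on both sides of 0.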

How the data were processed

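RNA was measured in 6 libraries of HEK293T cells, 3 labelled sh-control and 3 labelled sh-RREB1. The authors used STAR version 2.4.2a with hg38 and Gencode version 25, and deposited its unnormalized gene counts, library by library and merged into a single table. The kit in the labels is strand-specific, so sense-strand counts were used. Lines for reads on no gene (23.5 to 40.0% of uniquely mapped reads per library) were left out. Identifiers that share a symbol were reduced to the one with the most reads, and the counts of all 41 genes were the same in both tables.

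Genes with at least 10 reads summed over libraries (23345) were tested with edgeR 4.0.16 in R 4.3.3 (TMM, quasi-likelihood test, condition as the only term), in place of the DESeq2 of the study. DESeq2 1.42.0 was an alternative. A call required an adjusted p under 0.01 and more than a 2-fold change either way, as in the study. The standard error is the absolute log2 fold change over the square root of F, and intervals are at 95%. Exonic length, GC content and coordinates came from Gencode version 44 on GRCh38, promoters from RefSeq. The trend on GC content and length was fitted per library with natural splines (5 degrees of freedom, genes whose mean log2 CPM exceeded 0) and entered in the model as an offset. The fits were run on simulated counts with changes above 2-fold, the same spread for all genes and no trend on GC content. Smaller changes and libraries that deviate with GC content were not covered. The closest libraries, sh-control replicates 2 and 3, differed with a chi-square of 4.73 per degree of freedom, above sampling noise, so all 6 were kept apart.

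Per-library values are given for each of the 41 genes with an adjusted p under 0.05, for the highest and lowest fold change in each role and, in each related list, for the 2 highest and 2 lowest fold changes among genes with a mean of at least 1 CPM. The genes, lists and tests were chosen with earlier results of these data known. Alternatives were DESeq2, other scalings and filters, both strands together, the merged table, the replicate number as a block, the GC and length correction, another threshold, and each library left out.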

Additional observations from a re-analysis of the deposited data

Results flagged for a closer look

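Reads on the strand opposite to *POLE2*, the second subunit of polymerase epsilon, were outside the main measurement. They numbered 16, 18 and 26 in sh-control and 74, 44 and 30 in sh-RREB1, which is 1.17, 1.19 and 1.53% of the reads on both strands of the gene in sh-control and 6.39, 4.25 and 5.95% in sh-RREB1. All 3 sh-RREB1 shares were above all control shares. edgeR's quasi-likelihood test on opposite-strand counts gave a log2 fold change of 1.57 (adjusted p = 0.00860 over all genes tested on that strand). Over all genes, sh-RREB1 replicate 3 had 3923750 reads on the opposite strand beside 12257054 on the sense strand, the most opposite-strand reads of any library. The source of the *POLE2* reads and the part of this library were not tested.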

How the results depend on the processing

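The number of the 41 genes called was 1 and became 3 with DESeq2, 3 with a minimum of 1 read, 3 at an adjusted p under 0.05 with more than a 2-fold change, 2 with upper-quartile scaling, and 0 with the GC and length trend removed, also with each library left out (an alternative added after the data had been seen). It ranged from 0 to 3 with 1 library left out, where 0.0347 to 4.93% of all genes tested were called. The number at an adjusted p under 0.05 was 13 and ranged from 4 to 18 with 1 library left out, and from 8 to 15 when the trend was removed as well. In the same fits 6.13 to 22.1%, and 13.6 to 25.2%, of all genes tested were under 0.05. The median log2 fold change went from −0.063 to −0.15 with upper-quartile scaling, and ranged from −0.088 to 0.017 with 1 library left out. The cause of these moves was not tested.

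Other replication genes called were 1, and 2 with DESeq2, 2 with a minimum of 1 read, 2 at the looser threshold with the fold minimum, 0 with both strands together, 0 with the trend removed, and 0 to 2 with 1 library left out. RB-E2F and G1/S control genes called were 1, and 3 with the trend removed, 2 with both strands together and 1 to 2 with 1 library left out. Mitosis and G2/M genes called were 4, and 1 with the trend removed, 7 with upper-quartile scaling and 0 to 7 with 1 library left out. The share of all genes tested that was called with 1 library left out was 0.0347 to 4.93%, as above. Among the genes with per-library values, the estimates that turned sign with the trend removed were *E2F1* (−0.013), *CHAF1A* (−0.50) and *CDC25B* (−0.30), and *CHAF1A* ranged from −0.063 (without sh-control replicate 1) to 0.24 (without sh-control replicate 3) with 1 library left out.

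Groups share replicate numbers, and deviations from the group means correlated at 0.501, 0.434 and −0.275 for replicates 1, 2 and 3. Sh-control replicate 3 correlated best with sh-RREB1 replicate 2, and the replicate number was not used as a pairing in the main fit. These correlations were computed before the trend on GC content was removed. They cannot show whether libraries with the same number were prepared together. With the replicate number as a block, 5 of the 41 genes and 4 other replication genes were called. For the block, upper-quartile scaling, the 1-read minimum, both strands and the looser threshold, the share of all genes called is not given. Those counts therefore cannot be read as particular to these lists. With the block and the trend removed, 0 of the 41, 0 other replication genes, 3 RB-E2F genes and 1 mitosis gene were called, and *E2F1* was −0.0061, *CHAF1A* −0.50 and *CDC25B* −0.30. *RREB1* stayed between −0.37 and −0.084 in all fits, with adjusted p from 0.0110 (trend removed, with the block) to 0.686. Each group had 3 libraries, and depth was lowest in sh-RREB1 replicate 3. The part of depth in the spread of single genes was not tested. The SE of *CDT1* and *POLD1*, which had the fewest reads, was 0.36 and 0.37, and 0.16 and 0.12 with the trend removed. The trend was fitted per library, so these values cannot separate depth from base composition.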
